A study of Mus musculus with 12 samples.

Results

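The 7 genes described here encode 5 receptors of the TREM family and 2 adaptor proteins that such receptors and related ones signal through. They are the receptor genes *Trem1*, *Trem2*, *Trem3*, *Treml2* and *Treml4* and the adaptor genes *Tyrobp* and *Hcst*, 7 of the 53379 genes in the deposited count table, found by symbol through GENCODE M21. The group was selected on the counts of *Trem1*, which rose after fenoterol, so the contrasts of *Trem1* with untreated cells are given as a description with no test. All 7 genes passed the filter on low counts that left 12386 genes, but 2 of them did so through fenoterol libraries alone, *Trem1* through those of both times and *Trem3* through those taken at 4 h.

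TREM proteins (triggering receptors expressed on myeloid cells) are surface receptors with a single immunoglobulin-like domain and a short cytoplasmic tail. Most of them cannot signal alone and pair through a charged residue in the membrane with TYROBP, also called DAP12. The ITAM of TYROBP (an immunoreceptor tyrosine-based activation motif) is phosphorylated by SRC family kinases and then recruits the kinase SYK. HCST, also called DAP10, carries a different motif that recruits phosphoinositide 3-kinase. TREM1 is known from neutrophils and monocytes as an amplifier of Toll-like receptor responses, and TREM2 from macrophages and microglia as a receptor for lipids and lipoproteins that supports phagocytosis and survival.

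The cells were bone marrow-derived macrophages (BMDMs) of 4 male mice of strain C57Bl/6J, which were 8 to 20 weeks old. Marrow of femur and tibia had been grown for 1 week with medium conditioned by L929 cells, a mouse fibroblast line that secretes the macrophage growth factor CSF1. BMDMs of each mouse were left untreated or received 1 µM fenoterol, an agonist of the β2-adrenergic receptor, for 1 h or 4 h in the medium they already had, which gave 3 groups of 4 libraries with mouse as the replicate. No allele was altered and all 3 groups had the same conditioned medium. The labels name no vehicle for the untreated cells, which were the only control for both time points.

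Total counts per library ranged from 14580533 to 24153284. After 1 h of fenoterol 2493 of the 12386 genes tested (20.1%) differed from untreated cells at an adjusted p under 0.05 by edgeR's quasi-likelihood test, 10.0% of all genes tested being higher and 10.1% lower. After 4 h 4958 genes (40.0%) differed, 19.7% higher and 20.4% lower, and 4773 (38.5%) differed between 4 h and 1 h, 18.7% higher and 19.8% lower. Scaled by library size alone the split at 1 h was 949 genes higher and 1969 lower, and the split between the times was 3503 higher and 1830 lower. The comparisons at 1 h and 4 h share their untreated libraries.

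The 5 receptor genes lie in 121.4 kb of chromosome 17 on the plus strand (GRCm38, GENCODE M21). In order along the chromosome they are *Trem1* (chr17:48232768-48246924), *Trem3* (chr17:48247777-48258841), *Treml4* (chr17:48264295-48275360), *Treml2* (chr17:48299498-48312533) and *Trem2* (chr17:48346401-48354147). *Trem3* starts 852 bases after the annotated end of *Trem1*. The adaptor genes lie end to end on chromosome 7, *Tyrobp* (chr7:30413760-30417585, plus strand) and *Hcst* (chr7:30417712-30419854, minus strand), with 126 bases between them. No exon of the 7 genes overlapped an exon of another annotated gene. Their transcripts shared no exact stretch of 50 bases with annotated transcripts of other genes, so exact matches of that length could be told apart. Near matches were not examined.

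RefSeq promoter windows (GRCm38.p6) were given for 4 of the 7 genes, and those of the 3 receptors among them are shown because these genes, which lie in 1 cluster, moved differently. Each run is the 250 bases before the RefSeq start, 5′ to 3′ on the plus strand of the chromosome. Capitals mark matches, on either strand, to the cAMP response element CRE (TGACGTCA), its shortened form (TGACG), AP-1 (TGANTCA), NF-kB (GGGNNTTTC), PU.1 (GAGGAA) and C/EBP (TTNCNNAA), and to CRE with any base at position 4 (TGANGTCA). The shortened form is contained in CRE, and the last motif contains CRE and was added after the *Trem1* window was read.
Trem1, chr17:48232489-48232738: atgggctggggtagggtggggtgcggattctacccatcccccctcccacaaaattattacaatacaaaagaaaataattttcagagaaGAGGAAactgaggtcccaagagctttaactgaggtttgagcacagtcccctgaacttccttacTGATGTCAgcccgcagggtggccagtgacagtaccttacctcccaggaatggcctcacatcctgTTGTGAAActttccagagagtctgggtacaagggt
Trem2, chr17:48346151-48346400: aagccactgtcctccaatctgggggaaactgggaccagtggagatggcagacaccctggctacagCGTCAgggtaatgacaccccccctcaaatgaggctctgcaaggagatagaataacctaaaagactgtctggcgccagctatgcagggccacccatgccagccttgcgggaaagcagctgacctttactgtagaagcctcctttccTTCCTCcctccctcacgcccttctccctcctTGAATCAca
Treml4, chr17:48264045-48264294: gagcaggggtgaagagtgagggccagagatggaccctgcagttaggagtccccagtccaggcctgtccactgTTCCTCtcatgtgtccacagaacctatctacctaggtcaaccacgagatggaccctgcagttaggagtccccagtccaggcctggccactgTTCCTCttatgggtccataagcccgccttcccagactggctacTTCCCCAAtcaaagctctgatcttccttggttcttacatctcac

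The *Trem1* window held no CRE and no shortened CRE. It held the CRE variant TGATGTCA at 99 bases before the start, a PU.1 match at 162 bases and a C/EBP match at 35 bases. The *Trem2* window held a shortened CRE on the minus strand at 185 bases, a PU.1 match at 40 bases and an AP-1 match at 9 bases before the start. A C/EBP match lay 22 bases after it, outside the stretch shown. The *Treml4* window held PU.1 matches at 178 and 87 bases and a C/EBP match at 44 bases. The remaining window, that of *Hcst*, held C/EBP matches only, at 206 and 149 bases before the start. Of 32851 RefSeq windows of 300 bases, CRE was in 1.79%, the CRE variants in 8.83%, the shortened form in 20.8%, AP-1 in 7.81%, NF-kB in 4.36%, PU.1 in 28.3% and C/EBP in 40.7%. These matches are letters in a window and say nothing of binding.

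*Trem1*, whose product amplifies inflammatory responses, was close to the limit of detection in untreated BMDMs. The raw counts of mice 1 to 4 were 9, 1, 8 and 6 in untreated cells, 264, 204, 245 and 151 after 1 h and 1050, 591, 907 and 903 after 4 h. In scaled counts, 23.0% of all genes tested had no overlap between 1 h and untreated libraries, and 35.9% had none between the times. Every mouse had more *Trem1* counts at 1 h than any untreated library, and more at 4 h than any library at 1 h. Normalized counts (raw counts brought to 1 common library size by TMM scaling) averaged 5.83 ± 3.05 (SD, n = 4) untreated, 224 ± 49.4 at 1 h and 814 ± 209 at 4 h. The means were 38.4-fold and 140-fold above untreated, and the mean at 4 h was 3.63-fold that at 1 h. On the log2 scale the fitted changes were 5.15 (SE 0.33) at 1 h and 7.01 (SE 0.31) at 4 h.

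The untreated level of *Trem1* rests on 24 counts over 4 libraries, so the size of its fold is less certain than its level after fenoterol. Within mouse 2, which had 1 untreated count, the 4 h level was 460 times the untreated level. In mice 1, 3 and 4 it was 141, 109 and 109 times. From 1 h to 4 h, where counts are ample, the ratio within a mouse was 4.04, 2.69, 3.49 and 4.55. In bulk RNA, more cells that express a gene and more RNA per cell cannot be told apart.

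**Figure D1:**
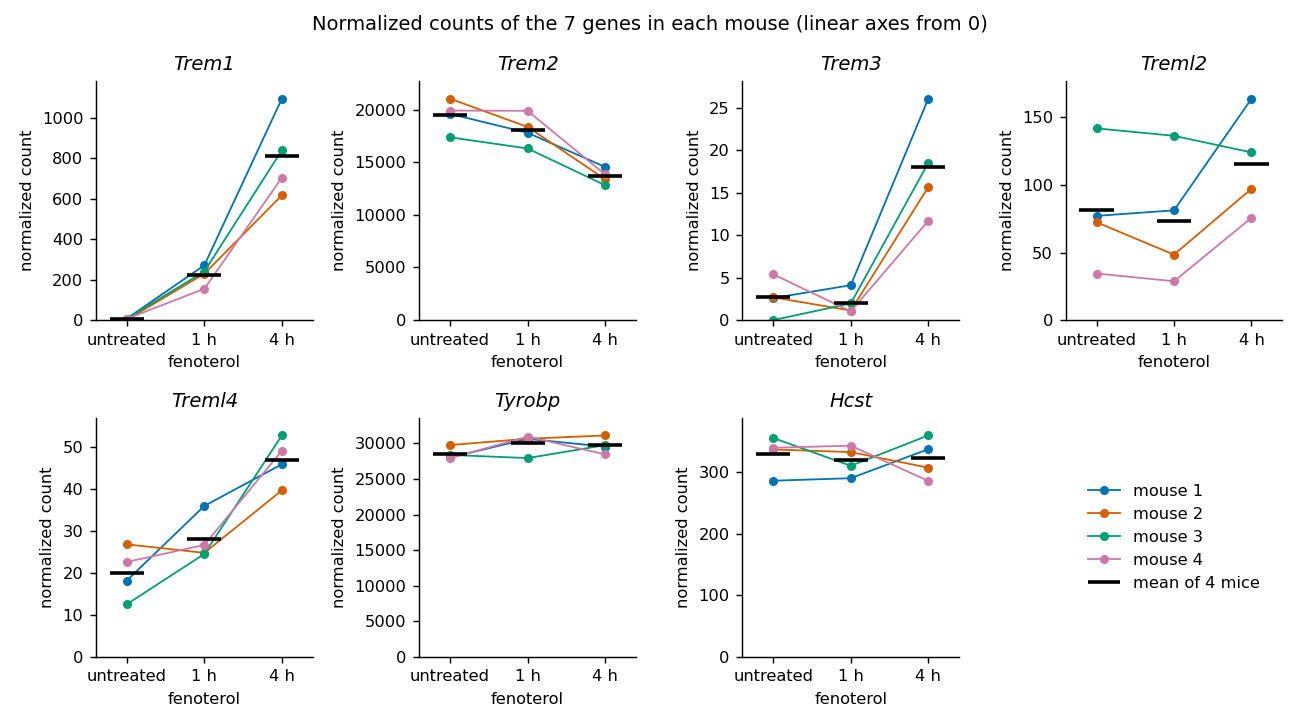
Normalized counts (linear axes from 0) of the 7 genes in untreated BMDMs and after 1 h and 4 h of fenoterol. Coloured points joined by lines are the 4 mice and black bars the mean of each group. *Trem1* climbs in every mouse to 617 to 1095, *Trem2* falls in every mouse by 4 h, and *Tyrobp* and *Hcst* stay within overlapping ranges.

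*Trem2* was the TREM receptor gene with the highest level in untreated BMDMs, and it was lower after 4 h of fenoterol. Its normalized counts in mice 1 to 4 were 19602, 21039, 17375 and 19914 untreated, 17803, 18363, 16310 and 19890 at 1 h and 14560, 13393, 12825 and 13849 at 4 h. Of all genes tested, 37.6% had no overlap between 4 h and untreated libraries, and 35.9% had none between 4 h and 1 h. For *Trem2* the 4 libraries at 4 h lay below all 8 others, while untreated and 1 h libraries overlapped. The log2 fold change was -0.51 (SE 0.07) at 4 h, a fall of 29.9% of the mean, with an adjusted p of 4.20e-05 by edgeR. At 1 h it was -0.11 (95% confidence interval -0.26 to 0.05, adjusted p = 0.351). The direct comparison of 4 h with 1 h gave -0.41 (SE 0.07, adjusted p = 0.000417), lower in 4 of 4 mice.

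*Trem3*, a receptor of mouse macrophages that pairs with TYROBP, was barely detected before 4 h. The counts of mice 1 to 4 were 3, 2, 0 and 5 untreated, 4, 1, 2 and 1 at 1 h and 25, 15, 20 and 15 at 4 h. All 4 libraries at 4 h lay above the other 8, beside 37.6% of all genes tested with no overlap between 4 h and untreated libraries. The log2 fold change at 4 h was 2.72 (SE 0.54), and against 1 h it was 3.03 (SE 0.56), while at 1 h it was -0.31 with an interval of -1.96 to 1.34. Because only the 4 h libraries took the gene past the filter on low counts, it had to differ to be tested at all, and no p is given from that fit. With no filter on low counts, where its entry did not depend on the 4 h libraries, the adjusted p by edgeR was 0.000525 at 4 h and 0.000246 for 4 h against 1 h.

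*Trem1* and *Trem3*, which lie side by side, can be set against each other in CPM, the count as a share of the scaled library size, per kilobase of exon. In untreated cells their levels overlapped, at 0.137 for *Trem3* and 0.0992 for *Trem1*. At 1 h *Trem3* stood at 0.105 and *Trem1* at 3.81. At 4 h *Trem3* stood at 0.922 and *Trem1* at 13.9.

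*Treml4*, whose product binds late apoptotic cells, was low throughout and higher after 4 h. Normalized counts in mice 1 to 4 were 18.2, 26.8, 12.5 and 22.6 untreated, 36.0, 24.8, 24.5 and 26.7 at 1 h and 45.9, 39.7, 52.8 and 49.1 at 4 h. Its groups overlapped at 1 h. At 4 h they stood apart from untreated, as did those of 37.6% of all genes tested, and its mean was 2.34-fold that of untreated cells. The log2 fold change was 1.25 (SE 0.24, adjusted p = 0.000651 by edgeR) at 4 h and 0.50 (interval -0.03 to 1.04, adjusted p = 0.190) at 1 h. Between 4 h and 1 h it was 0.74 (SE 0.23, adjusted p = 0.0180), higher in 4 of 4 mice. That call was lost, with an adjusted p of 0.0506 to 0.0583, when the 1 h library of mouse 2, the 1 h library of mouse 3 or the 4 h library of mouse 3 was left out.

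*Treml2*, a TREM-like receptor that lacks the usual means of pairing with TYROBP, differed between mice, and its groups overlapped. Its normalized counts in mice 1 to 4 were 77.1, 72.4, 142 and 34.5 untreated, 81.2, 48.4, 136 and 28.7 at 1 h and 164, 97.1, 124 and 75.6 at 4 h. Mouse 4 was the lowest in every group. Mice 1, 2 and 4 had 2.12, 1.34 and 2.19 times their untreated level at 4 h, and mouse 3 had 0.875 times. The log2 fold change at 4 h was 0.48 (interval -0.45 to 1.41, adjusted p = 0.412 by edgeR), and with the mouse as a block it was 0.59 (adjusted p = 0.0298). Against 1 h it was 0.63 (adjusted p = 0.285), and 0.74 with the block (adjusted p = 0.00864), whereas at 1 h it was -0.15 with an interval of -1.10 to 0.81. When single libraries were left out, the value ranged from 0.22 to 0.89 at 4 h and from 0.36 to 1.10 against 1 h, with no call in the fit without the block.

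The adaptor genes did not pass the test in any comparison, and their intervals were narrow. *Tyrobp* had normalized counts of 28029, 29774, 28388 and 27928 in untreated mice 1 to 4, of 30640, 30660, 27939 and 30955 at 1 h and of 29551, 31125, 29755 and 28468 at 4 h. All 3 groups overlapped. Its log2 fold change was 0.07 (interval -0.03 to 0.18) at 1 h and 0.06 (-0.05 to 0.17) at 4 h, with adjusted p-values of 0.358 and 0.385 by edgeR. *Hcst* had normalized counts of 286 to 355 untreated, 290 to 343 at 1 h and 285 to 359 at 4 h. Its log2 fold change was -0.05 (interval -0.25 to 0.16) at 1 h and -0.03 (-0.24 to 0.18) at 4 h.

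**Figure D2:**
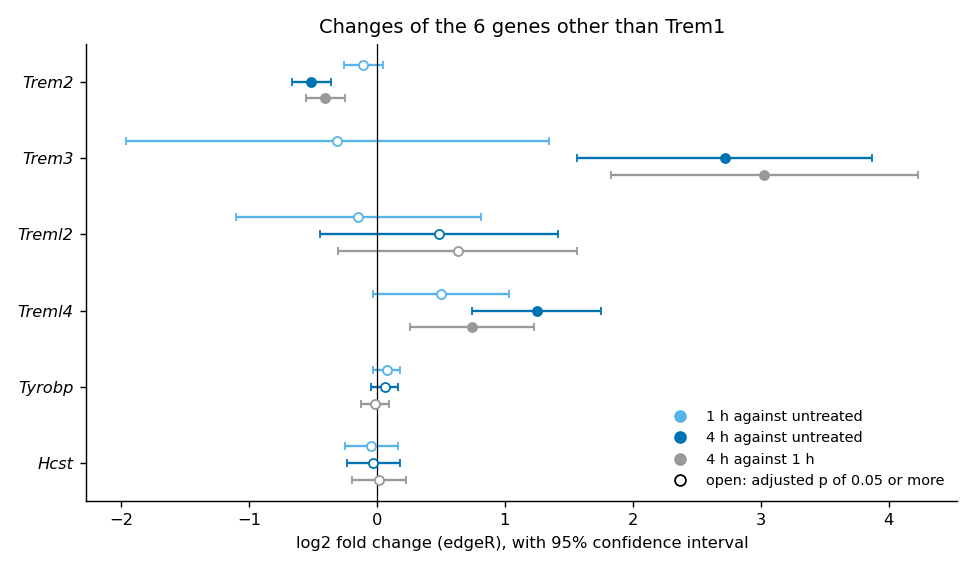
Log2 fold changes from edgeR (horizontal axis) of the 6 genes other than *Trem1*, with 95% confidence intervals, for 1 h and 4 h of fenoterol against untreated cells and for 4 h against 1 h. Filled points have an adjusted p under 0.05, and *Trem3* entered the fit only through its 4 h libraries. *Trem2* lies at -0.51 and *Treml4* at 1.25 at 4 h, and the intervals of *Tyrobp* and *Hcst* all span 0.

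Of the 6 genes other than *Trem1*, 0 differed from untreated cells at 1 h by edgeR, beside 20.1% of all genes tested. At an unadjusted p under 0.05 the count was also 0, as it was with DESeq2 and limma-voom. *Trem3* is left out of the counts at 4 h, because only its 4 h libraries took it past the filter. Of the other 5, 2 differed at 4 h, *Treml4* being higher and *Trem2* lower, beside 40.0% of all genes tested, and the same 2 genes differed between 4 h and 1 h. A share of 2 in 5 equals that of all genes. With the mouse as a block *Treml2* passed as well in both comparisons, which makes 3 of 5, beside 47.4% of all genes at 4 h and 46.6% between the times.

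Levels of different genes are compared per length, in CPM per kilobase of exon. In untreated BMDMs the order was *Tyrobp* at 2180 ± 65.2 (SD, n = 4), *Trem2* at 201 ± 15.8, *Hcst* at 23.2 ± 2.12, *Treml2* at 0.844 ± 0.462, *Treml4* at 0.512 ± 0.156, *Trem3* at 0.137 ± 0.113 and *Trem1* at 0.0992 ± 0.0520. The adaptor *Tyrobp* thus stood above every receptor. *Treml2* and *Treml4* overlapped, as did *Trem3* and *Trem1*, and the other neighbours in this order did not. At 1 h *Trem1* was in the 4th place at 3.81 ± 0.840, above *Treml2* and *Treml4*, which overlapped. At 4 h it was still in the 4th place at 13.9 ± 3.55, below *Hcst* at 22.7 ± 2.30, while *Treml4*, *Treml2* and *Trem3* at 1.196, 1.194 and 0.922 overlapped.

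The 5 receptors summed to 202 ± 15.6 CPM per kilobase in untreated cells, 192 ± 14.1 at 1 h and 158 ± 10.5 at 4 h. Of this sum *Trem2* made up 99.2% ± 0.184, 97.1% ± 0.846 and 89.2% ± 2.11. The share of *Trem1* was 0.0503% ± 0.0278 untreated, 2.01% ± 0.531 at 1 h and 8.71% ± 1.76 at 4 h. For every unit of *Trem1* there were 51.8 ± 17.8 units of *Trem2* at 1 h and 10.6 ± 2.35 at 4 h, so *Trem2* remained the higher of the pair in every library. *Tyrobp* stood at 10.8 ± 0.785 times the receptor sum in untreated cells and 14.4 ± 1.21 times at 4 h.

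**Figure D3:**
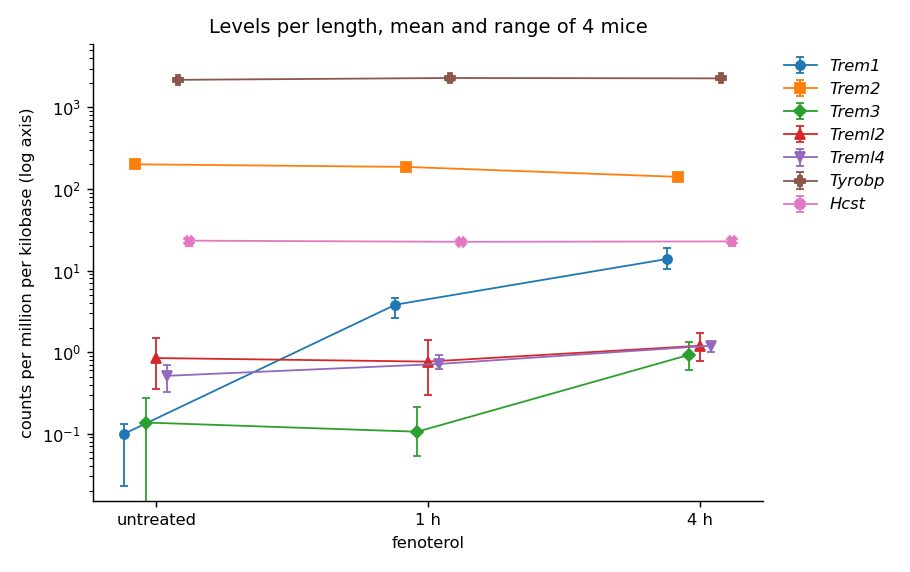
Levels of the 7 genes in CPM per kilobase of exon (log axis) in untreated BMDMs and after 1 h and 4 h of fenoterol. Symbols are means and bars the range of 4 mice, and the bar of untreated *Trem3* runs off the axis because 1 library had no count. *Trem1* moves from the last place at 0.0992 to the 4th at 13.9, while *Tyrobp* and *Trem2* keep the first places.

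Differences between mice were tested with the mouse as a term in the fit, which is a measure the choice of *Trem1* did not use. This term passed for 1721 genes (13.9% of those tested), and among the 7 genes for *Treml2* (adjusted p = 0.00141 by edgeR) and *Trem1* (adjusted p = 0.00935). *Treml2* was lowest in mouse 4 in all 3 groups, and highest in mouse 3 in untreated cells and at 1 h but in mouse 1 at 4 h. The highest mouse had 4.12 times the lowest untreated, 4.75 times at 1 h and 2.16 times at 4 h. *Trem1* was highest in mouse 1 and next highest in mouse 3 at 1 h and at 4 h, with a span of 1.75-fold and 1.77-fold. In untreated cells its span was 5.81-fold, from 1 to 9 counts. Mice 1 and 3 were there at 7.79 and 7.72 normalized counts, too few to rank them. *Trem2* did not pass (adjusted p = 0.0692), and for the other 4 genes the adjusted p was 0.593 or higher.

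Genes of the ITAM pathway downstream of TYROBP changed in both directions, with more lower than higher at 4 h. Of 24 tested, 5 were higher and 7 lower at 1 h, and 6 higher and 14 lower at 4 h, beside 20.1% and 40.0% of all genes in either direction. The median log2 fold change of the list was -0.03 at 1 h and -0.24 at 4 h, against -0.005 and 0.004 over all genes tested. *Syk*, the kinase that docks on the phosphorylated ITAM, rose by 0.31 at 1 h (adjusted p = 0.00173) and 0.33 at 4 h (adjusted p = 0.000457). *Lyn*, a SRC family kinase, rose from a mean of 4006 normalized counts to 5289 and 6694, a log2 change of 0.40 and 0.74 (adjusted p = 4.69e-05 and 3.75e-08).

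Several adaptor and effector genes of the pathway fell at 4 h. *Blnk*, an adaptor that links SYK to phospholipase C, went from 3785 to 1202 normalized counts, a log2 change of -1.65 (SE 0.08, adjusted p = 1.40e-09). *Tec*, a cytoplasmic tyrosine kinase, changed by -0.83 (adjusted p = 1.11e-08) and *Vav1*, an exchange factor for small GTPases, by -0.71 (adjusted p = 5.88e-08). Changes at 1 h included *Malt1*, a protease of the CARD9 and BCL10 complex, at 0.83 (adjusted p = 7.84e-05), *Pik3cd*, a catalytic subunit of phosphoinositide 3-kinase, at -0.42 (adjusted p = 0.000272) and *Lcp2*, the adaptor SLP-76, at -0.38 (adjusted p = 0.000754). *Malt1* was back at 648 normalized counts at 4 h, beside 682 untreated and 1212 at 1 h.

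Of 18 inhibitors of ITAM signalling, 2 were higher and 3 lower at 1 h, and 6 were higher and 10 lower at 4 h, beside 20.1% and 40.0% of all genes in either direction. *Sla2*, a relative of *Sla* counted as higher at both times, passed the filter on low counts only through fenoterol libraries. Among the other 17, 1 was higher and 3 lower at 1 h, and 5 were higher and 10 lower at 4 h. With the mouse as a block the count of the 18 at 1 h was 4 higher and 4 lower, beside 27.0% of all genes. The median was 0.02 at 1 h, or -0.05 with scaling by library size alone, and -0.51 at 4 h. *Dok1*, an adaptor that restrains tyrosine kinase signalling, fell from 1998 to 997 normalized counts at 1 h, a log2 change of -1.001 (SE 0.07, adjusted p = 9.95e-08). *Sla*, an adaptor that promotes loss of antigen receptors, changed by -0.50 at 1 h (adjusted p = 0.00208) and -1.74 at 4 h (adjusted p = 7.94e-09). *Ptpn6*, the phosphatase SHP-1, changed by -0.24 at 1 h (adjusted p = 0.0124), and *Pilra*, an inhibitory receptor, by 0.41 (adjusted p = 0.0168). At 4 h the collagen receptor *Lair1* fell by 2.07 (adjusted p = 1.13e-06) and *Sirpa*, the receptor for CD47, by 1.34 (adjusted p = 5.62e-09). *Cd300lf*, also an inhibitory receptor, rose by 1.58 (adjusted p = 3.73e-06).

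Among 24 other receptors and adaptors of the ITAM kind 19 were tested, and 7 passed at 1 h, all of them higher, beside 10.0% of all genes that were higher. This count fell to 3 without the 1 h library of mouse 2 or the untreated library of mouse 1, and to 4 without the untreated library of mouse 4. At 4 h 6 were higher and 4 lower, beside 40.0% of all genes in either direction. The list's median was 0.07 at 1 h, or -0.0007 with scaling by library size alone, and 0.004 at 4 h. *Clec4e*, which encodes the glycolipid receptor Mincle, had 608, 1355 and 2808 normalized counts untreated, at 1 h and at 4 h, a log2 change of 1.15 (adjusted p = 1.76e-05) and 2.20 (adjusted p = 1.05e-08). *Fcgr4*, an activating receptor for immunoglobulin G, changed by 0.43 at 1 h (adjusted p = 0.0239, or 0.0527 with scaling by library size alone) and 1.05 at 4 h (adjusted p = 8.99e-06). *Clec5a*, a receptor that pairs with TYROBP, had 205, 184 and 106 normalized counts and fell by 0.95 at 4 h (adjusted p = 0.00214).

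Other receptors that pair with TYROBP moved both ways. *Cd300lb*, which binds lipids, rose by 0.57 at 1 h (adjusted p = 6.09e-06) and *Pilrb1*, the activating partner of *Pilra*, by 0.55 (adjusted p = 0.0199). *Cd200r4*, an activating relative of the inhibitory receptor *Cd200r1*, fell by 0.88 at 4 h (adjusted p = 0.000703). *Fcer1g*, the other ITAM adaptor of myeloid cells, had 19981, 20946 and 20378 normalized counts, and its log2 change was 0.07 at 1 h (adjusted p = 0.539) and 0.03 at 4 h (adjusted p = 0.771). The receptors *Sirpb1a*, *Sirpb1b*, *Sirpb1c*, *Pilrb1* and *Pilrb2* have close paralogs, so their reads may have been split or dropped.

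**Figure D4:**
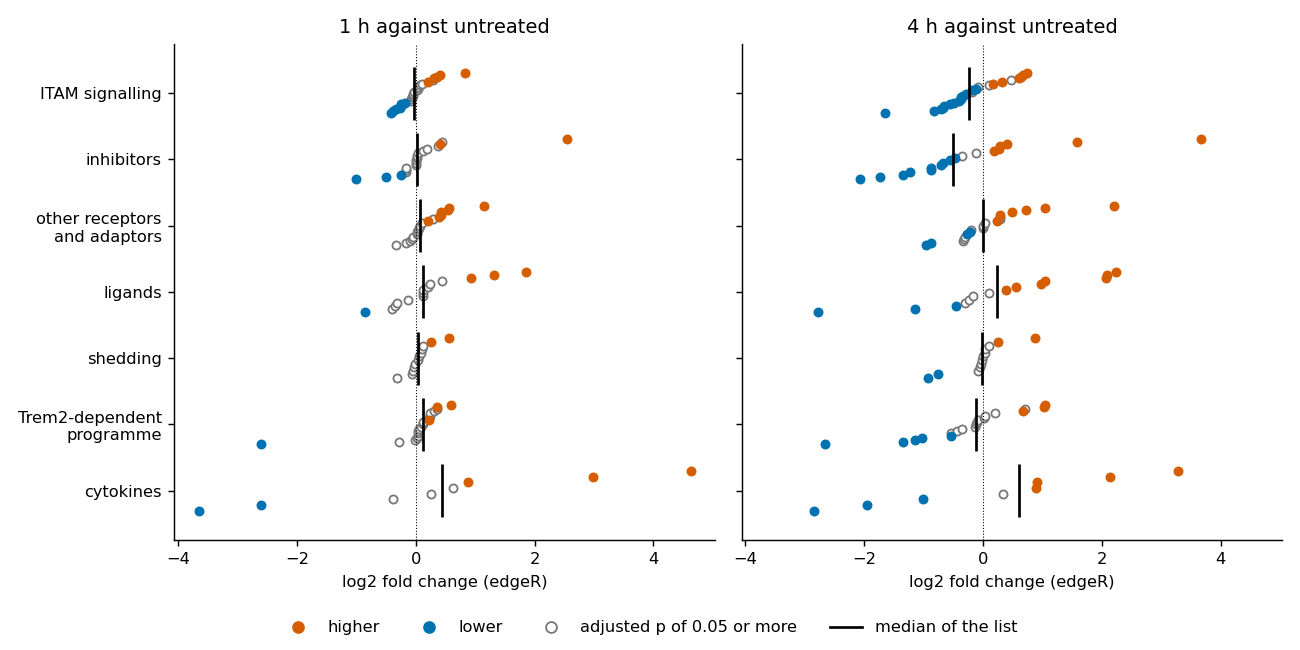
Log2 fold changes from edgeR (horizontal axis) of the tested genes in 7 lists around the TREM receptors (rows) after 1 h and 4 h of fenoterol. Each point is 1 gene, filled where the adjusted p was under 0.05, and the black line is the list's median. ITAM signalling genes and their inhibitors lie mostly left of 0 at 4 h, with medians of -0.24 and -0.51.

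Genes for ligands of these receptors, from the literature, numbered 15, of which 14 were tested, with 3 higher and 1 lower at 1 h and 7 higher and 3 lower at 4 h, beside 20.1% and 40.0% of all genes. Of the 14, 5 (*Hspa1a*, *Hspa1b*, *H60b*, *Cd276* and *Pglyrp1*) did not reach the filter's minimum in all libraries of each group, so their entry into the test depended on some libraries only. Among the other 9, 1 was higher and 1 lower at 1 h, and 4 were higher and 2 lower at 4 h. With the mouse as a block 5 of the 14 were higher and 2 lower at 1 h, and 7 were higher and 5 lower at 4 h. The block called 27.0% and 47.4% of all genes. Without the untreated library of mouse 1, 2 of the 14 passed at 1 h, beside 2135 genes in all. These counts of the 14 include the 5 genes just named. *Sema6d*, a semaphorin whose receptor complex with PLXNA1 includes TREM2 and TYROBP, fell from 161 to 89.0 and 23.2 normalized counts, a log2 change of -0.86 at 1 h (adjusted p = 0.0117) and -2.78 at 4 h (SE 0.25, adjusted p = 5.17e-07). *App*, the precursor of amyloid-β, which TREM2 binds, changed by 0.38 at 4 h (adjusted p = 5.31e-05), and *Cirbp*, an RNA-binding protein that TREM1 binds outside cells, by 0.55 (adjusted p = 0.0176). *Ulbp1*, a ligand of the HCST partner NKG2D, changed by -0.46 at 4 h (adjusted p = 0.0140). Other NKG2D ligands, with fewer counts, were higher after fenoterol. *Raet1d* had 18.8, 35.8 and 88.8 normalized counts, a log2 change of 0.93 at 1 h (adjusted p = 0.0197) and 2.24 at 4 h (SE 0.24, adjusted p = 3.80e-06). *Raet1e* had 32.9, 38.3 and 65.3, a change of 0.98 at 4 h (SE 0.28, adjusted p = 0.0114). *H60b*, which reached the filter's minimum in only 2 of the 4 untreated libraries, had 9.55, 35.5 and 41.4, and with no filter its change was 1.86 at 1 h (adjusted p = 0.000234 by edgeR) and 2.08 at 4 h (adjusted p = 1.52e-05). These ligand genes are paralogs, and how the counting divided reads between them was not tested. The TREM1 ligand *Pglyrp1* had 10.7, 8.47 and 9.37 normalized counts. *Apoe*, a ligand of TREM2, had 112870, 103004 and 91030, with a log2 change of -0.31 at 4 h (adjusted p = 0.0760 in the fit without the block), lower in 4 of 4 mice.

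Of 12 genes for shedding and intramembrane cleavage, which release the ectodomain of TREM2 and then cut its stub, 2 passed at 1 h, both higher, and 2 were higher and 2 lower at 4 h. These shares, 16.7% and 33.3%, were not above those of all genes, 20.1% and 40.0%. *Adam17*, a sheddase, had 8336, 8015 and 4910 normalized counts and fell by 0.76 at 4 h (adjusted p = 1.07e-06). *Adam10*, the other main sheddase, rose by 0.25 at 4 h (adjusted p = 0.00296). *Psen2*, a catalytic subunit of γ-secretase, rose by 0.55 at 1 h (adjusted p = 2.85e-06) and 0.88 at 4 h (adjusted p = 1.04e-08). *Aph1c*, also of γ-secretase, rose by 0.26 at 1 h (adjusted p = 0.00315), and *Rhbdf1*, which carries ADAM17 to the surface, fell by 0.92 at 4 h (adjusted p = 0.000241).

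Of genes known to depend on *Trem2* in lipid-associated macrophages and microglia, 19 were tested, with 3 higher and 1 lower at 1 h and 3 higher and 5 lower at 4 h. Of all genes 20.1% and 40.0% passed in either direction. *Ch25h*, which makes an oxysterol and was counted as lower at both times, passed the filter only through untreated libraries. Among the other 18, 3 were higher and 0 lower at 1 h, and 3 were higher and 4 lower at 4 h. With no filter the count of the 19 at 4 h was 3 higher and 8 lower, *Ch25h* included, beside 4625 genes in all. With the mouse as a block the counts were 7 higher and 1 lower at 1 h and 5 higher and 9 lower at 4 h, beside 27.0% and 47.4% of all genes, and without the 1 h library of mouse 1, or with scaling by library size alone, 2 passed at 1 h. *Igf1*, a growth factor, fell from 17511 to 6896 normalized counts at 4 h, a log2 change of -1.34 (SE 0.08, adjusted p = 4.65e-09), and *Lpl*, lipoprotein lipase, fell by 1.14 (adjusted p = 0.000164). *Ctsl*, a lysosomal protease, rose by 1.05 (adjusted p = 1.05e-08) and the chemokine *Ccl6* by 1.03 (adjusted p = 4.39e-06). *Clec7a*, the β-glucan receptor, rose by 0.60 at 1 h (adjusted p = 0.000469) and was lower than untreated by 4 h, at -0.54 (adjusted p = 0.000499). The fatty acid receptor *Cd36* rose by 0.37 at 1 h (adjusted p = 0.0258), and *Ctsl* by 0.22 (adjusted p = 0.0247), which were 0.0660 and 0.0873 with scaling by library size alone.

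Cytokine genes that TREM1 signalling is known to amplify moved in both directions. Of 8 tested among 9, 3 were higher and 2 lower at 1 h, and 4 higher and 3 lower at 4 h, beside 20.1% and 40.0% of all genes. *Il1a*, counted as higher at both times, passed the filter only through fenoterol libraries, and among the other 7 there were 2 higher and 2 lower at 1 h and 3 higher and 3 lower at 4 h. *Il1b* had 69.6, 1668 and 657 normalized counts, a log2 change of 4.63 (SE 0.26, adjusted p = 4.39e-09) at 1 h and 3.28 (SE 0.26, adjusted p = 1.20e-07) at 4 h. *Cxcl2*, a neutrophil attractant, rose by 0.89 at 1 h (adjusted p = 0.00219). The chemokines *Ccl3* and *Ccl4* fell at 1 h by 3.65 (adjusted p = 1.51e-09) and 2.61 (adjusted p = 5.78e-08), and at 4 h by 2.84 (adjusted p = 7.57e-09) and 1.95 (adjusted p = 4.34e-07). *Tnf* fell by 1.02 at 4 h (adjusted p = 6.00e-05). *Il1b* was highest at 1 h and *Trem1* at 4 h.

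Within 500 kb of the start of *Trem1*, 22 annotated genes other than the 5 receptors were listed, of which 10 had any count and 7 were tested. At 4 h 3 of them were higher and 2 lower, beside 40.0% of all genes in either direction. *A530064D06Rik*, whose start lies 65.5 kb before that of *Trem1*, had 200, 214 and 557 normalized counts and rose by 1.46 at 4 h (SE 0.22, adjusted p = 8.12e-05). *B430306N03Rik*, which lies 83.4 kb after it, between *Treml2* and *Trem2*, had 1026, 801 and 1538 and rose by 0.58 (SE 0.12, adjusted p = 0.00154). *Treml1*, a TREM-like receptor known from platelets, starts 127 kb after *Trem1*, had 248, 220 and 165 and fell by 0.59 (adjusted p = 0.0273). *Tfeb*, a regulator of lysosomal genes that starts 496 kb before *Trem1*, fell by 0.60 at 1 h (adjusted p = 0.00111) and 0.92 at 4 h (adjusted p = 1.06e-05), and *Oard1*, a deacylase gene, fell by 0.36 at 1 h (adjusted p = 0.0145). At 1 h 2 of the 7 were lower, or 4 with the mouse as a block or with scaling by library size alone, and 0 were higher by edgeR, DESeq2 or limma-voom, and 0 also at an unadjusted p under 0.05. Of all genes 10.1% were lower and 10.0% higher at 1 h. The block called 27.0% of all genes in either direction, and with scaling by library size alone 1969 of 12386 genes were lower.

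**Figure D5:**
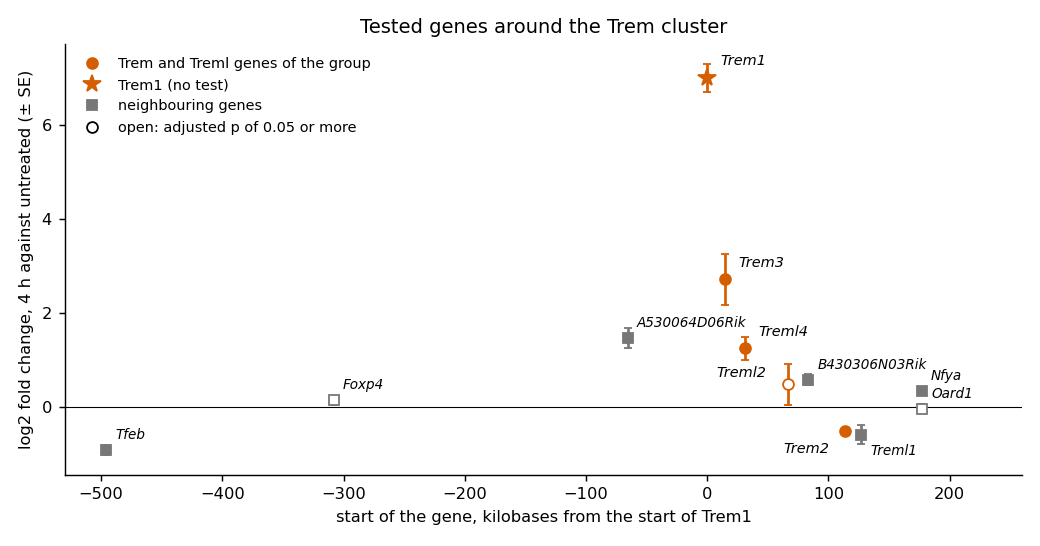
Log2 fold changes at 4 h of fenoterol against untreated cells (vertical axis, with SE bars from edgeR) of the tested genes around the *Trem* cluster, placed by the distance of their start from that of *Trem1* in kilobases. Orange points are the receptor genes described here and grey squares their neighbours, filled where the adjusted p was under 0.05, and the star is *Trem1*, which was not tested. *Trem3* entered the fit only through its 4 h libraries. *Trem1* at 7.01 stands above *Trem3* at 2.72, *A530064D06Rik* at 1.46 and *Treml4* at 1.25, and *Trem2*, *Treml1* and *Tfeb* lie below 0.

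The label of the cells was checked against markers. All 8 macrophage markers were detected in each group, with a sum of 40415 to 42691 CPM in untreated libraries, 37185 to 43498 at 1 h and 34238 to 38710 at 4 h, when 2 of the 8 were higher and 5 lower, beside 40.0% of all genes in either direction. Neutrophils, the cells best known for TREM1, had 11 markers on the list, with a sum of 145 to 182 CPM untreated, 144 to 182 at 1 h and 93.6 to 113 at 4 h. Of the 9 that were tested, 0 were higher at either time by edgeR, DESeq2 and limma-voom, 0 also at an unadjusted p under 0.05, and *Csf3r* was lower at 4 h, beside 10.0% and 19.7% of all genes that were higher at 1 h and 4 h and 20.4% lower at 4 h. The neutrophil marker *Ly6g* had a mean of 0.458, 0 and 0.522 normalized counts.

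Summed markers of T and NK cells, mast cells and basophils, and dendritic cells did not exceed 1.43 CPM in any library, and none of these markers was at 0 in all 12 libraries. Monocyte markers summed to 102 to 125 CPM untreated, 57.7 to 82.9 at 1 h and 45.5 to 56.4 at 4 h. *Ighm*, an immunoglobulin heavy chain gene known from B cells, had means of 5741, 3763 and 847 normalized counts, beside at most 1.53 for the B cell genes *Cd79a* and *Ms4a1*. The part of the monocyte markers and of *Ighm* in the results above was not tested.

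Genes with the profile most like that of each member over the 12 libraries, by Pearson's r of log2 CPM among 10285 genes with a mean of at least 50 normalized counts, are given as a description. The libraries share 3 treatment groups and 4 mice, so they are not independent points. Nearest to *Trem1* were *Tpm4* (r = 0.988), a tropomyosin, *Sdhaf2* (0.987), *Tgm2* (0.987), a transglutaminase, *AI839979* (0.987) and *Blcap* (0.987). *Tgm2* had 1316, 9694 and 30736 normalized counts in the 3 groups, and *Tpm4* had 3227, 5214 and 6112. Nearest to *Trem2* were *Selenbp1* (0.978), *Mex3b* (0.968) and *Plxnd1* (0.967), which were lower by 0.98, 1.10 and 1.10 on the log2 scale at 4 h.

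For the remaining genes the nearest were *Cib1* (0.965), *Abcc4* (0.955) and *Zfp719* (0.948) for *Trem3*, and *Ccnc* (0.940), *Zkscan6* (0.929) and *Anxa11* (0.921) for *Treml4*. *Treml2* was most like *Naa25* (0.963), *Pigu* (0.924) and *Cd59a* (0.906). *Tyrobp* was most like *Psma7* (0.858), *Tnfrsf1b* (0.823) and *Snx9* (0.818), and *Hcst* like *Haghl* (0.868), *Zfp867* (0.832) and *2310009B15Rik* (0.820).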

How the data were processed

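Reads of stranded mRNA libraries from 12 BMDM samples (3 groups of 4 mice) were mapped to GRCm38 with TopHat2 2.0.11 and counted per gene with HTSeq 0.8.0, per the labels and the submitters' processing notes. The authors deposited raw counts per gene and library with no normalization, and the strand option and annotation release are not given in the sources used here. Genes were named through GENCODE M21, which matched 53274 of the 53379 listed.

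From these counts, edgeR 4.0.16 in R 4.3.3 (filterByExpr, TMM, quasi-likelihood test, 1 fit over 12 libraries with no covariate) tested 12386 genes. Adjustment over all of them followed Benjamini and Hochberg, with a threshold of 0.05. The biological coefficient of variation was 0.112. The paper's normalization was vsn with limma. Here limma-voom (limma 3.58.1) and DESeq2 1.42.0 served as alternatives, beside RLE or library-size scaling, no filter, a mean normalized count of at least 50, a block for the mouse, fits of single pairs of groups, and each library left out. The fits were tested on simulated counts. Summaries and figures used Python 3.11.15 with pandas 2.3.3 and matplotlib 3.10.9.

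Libraries of the same mouse number come from the same mouse per the labels. The deviations of such libraries from their group means had r from 0.290 to 0.561 (12 pairs), and those of different mice from -0.304 to 0.0912 (36 pairs). Replicates differed by more than counting error, with a chi-square per degree of freedom of 9.29 to 19.4.

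The members and gene lists were chosen with earlier results of these data known. The genes named are the 7 members, in each list up to 4 genes per time point with the largest change among those past the threshold in all 4 mice with a mean of at least 50, and the genes nearest in profile. *Syk*, *Fcer1g*, *Pglyrp1*, *Apoe*, *Raet1d*, *Raet1e*, *H60b*, the genes named for how they passed the filter and the marker genes named singly were chosen after their values were seen, and counts without genes that reached the filter in some groups only were added then. For 1 marker gene, results are not reported here.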

Additional observations from a re-analysis of the deposited data

Results flagged for a closer look

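*Tyrobp* at 1 h of fenoterol had 1 library far from the other 3, that of mouse 3 at 27939 normalized counts beside 30640 to 30955. Its gap to the nearest library was 0.896 of the group's range, above Dixon's 95% critical value for 4 libraries. This was 1 of 21 groups examined, and chance alone gives about 1.05 of them.

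The effects at 4 h and at 1 h, which share the untreated libraries, differed for *Trem2* and *Treml4* by edgeR's test of 4 h against 1 h. The log2 difference was -0.41 for *Trem2* (adjusted p = 0.000417) and 0.74 for *Treml4* (adjusted p = 0.0180). For *Trem3*, which passed the filter on low counts only through its 4 h libraries, the difference was 3.03, and with no filter it was 3.04 (adjusted p = 0.000246 by edgeR).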

How the results depend on the processing

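Outside the pathway lists, 519 values under alternatives kept their direction and side of the threshold, or their size where they were counts or levels. Another 21 did not. Of these 12 reversed direction, 3 lost a call, 2 gained a call and 4 were counts or levels that changed in size. Of the counts over the pathway lists, 303 stayed within 1.5 times the value reported and 12 moved further. The calls of *Trem2* at 4 h held in every alternative, with an adjusted p of at most 0.000273, as did that of *Treml4* (at most 0.00302) where it was tested. A mean of at least 50 normalized counts removes *Trem3* and *Treml4*. Among members other than *Trem1*, this filter left only *Trem2* called at 4 h and between the times, and 4619 genes in all were called at 4 h. In the main fit, with *Trem3* left aside, *Trem2* and *Treml4* were called in both comparisons, beside 40.0% and 38.5% of all genes. With the replicate block, *Treml2* was called at 4 h (0.59, adjusted p = 0.0298) and between the times (0.74, adjusted p = 0.00864), and no other call of a member changed. *Trem3* at 1 h was 0.0122 with limma-voom, and *Tyrobp* between the times was 0.0768 with scaling by library size alone, where neither was called and the cause was not tested.

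When single libraries were left out, uncalled log2 fold changes crossed 0 for *Trem3* at 1 h (-0.85 to 0.27), *Treml2* at 1 h (-0.63 to 0.27), *Hcst* at 4 h (-0.0945 to 0.0251), and between the times *Tyrobp* (-0.0658 to 0.00492) and *Hcst* (-0.0422 to 0.0706). *Treml4* between the times ranged from 0.67 to 0.89 and lost its call without the 1 h library of mouse 2 or 3 or the 4 h library of mouse 3. Per kilobase of the longest transcript in place of all exons, untreated *Tyrobp* was 2436 and *Hcst* 38.0, in the same order. Depth limits *Trem1* in untreated cells (1 to 9 counts per library), *Trem3* before 4 h (0 to 5) and *Treml4* (13 to 63).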
